A study of Mus musculus with 3 samples.

Results

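The genes described here are 10 that mark the hormone output of the gut's endocrine cells. 9 of them encode peptide precursors, namely *Cck*, *Gip*, *Ghrl*, *Nts*, *Pyy*, *Sst*, *Gcg*, *Sct* and *Tac1*, and *Tph1* encodes the enzyme that commits tryptophan to serotonin in the gut. They were chosen by name, with no threshold on any value, and all 10 were among the 27998 genes of the files. Their levels and their co-occurrence were read in endocrine barcodes, defined as cell barcodes with 5 or more unique molecular identifiers (UMIs) of *Chga* and *Chgb* together, which encode the granins of secretory granules. Of the barcodes kept after filtering, 418 of 10191 met that rule in the WT library, 520 of 9634 in the *LApc* library and 391 of 14509 in the *LApcL* library.

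The study profiled EpCAM-sorted epithelial cells of the mouse small intestine by droplet sequencing of single cells, in 1 library per genotype. The mice were C57BL/6, were given 2 doses of 2 mg of tamoxifen at 7 to 8 weeks of age, and differed in genotype and day. WT mice were sampled on day 21 after tamoxifen. *LApc* mice (Lgr5-CreERT2;Apc fl/fl) lose the tumor suppressor *Apc* and were sampled on day 29. *LApcL* mice carry the same alleles and Lef1 fl/fl in addition, lose the Wnt pathway factor *Lef1* as well and were sampled on day 21. The Cre is driven from the *Lgr5* locus, so recombination starts in the stem cells at the crypt base and passes to the endocrine cells that arise from recombined stem cells. How many of the endocrine barcodes were recombined was not measured. With 1 library per genotype, the differences between genotypes cannot be told apart from differences between mice and libraries, nor for *LApc* from the later day. No test was therefore made, and every interval given is a 95% interval for counting error only.

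Enteroendocrine cells are scattered single cells of the gut lining that sense nutrients and release hormones toward the blood and nearby nerves. They arise from crypt stem cells through a transient stage marked by the transcription factor *Neurog3*. They are classically named by a main product: I cells for cholecystokinin, K cells for GIP, X cells for ghrelin, N cells for neurotensin, L cells for GLP-1 and peptide YY, D cells for somatostatin, S cells for secretin and enterochromaffin cells for serotonin. The enterochromaffin cells of the small intestine also make tachykinins from *Tac1*. Single-cell work has shown that one cell often holds transcripts of several hormones, which is why the combinations are counted below.

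The genes lie on 7 chromosomes and are all annotated as protein coding (GENCODE M21, GRCm38). *Gip* spans chr11:96024545-96030831 on the plus strand and *Pyy* chr11:102106676-102107832 on the minus strand of the same chromosome. *Ghrl* (chr6:113716119-113719880) and *Tac1* (chr6:7554879-7565834) share chromosome 6, and *Sct* (chr7:141278330-141279133) and *Tph1* (chr7:46644641-46672537) share chromosome 7. *Cck* lies at chr9:121489824-121495694, *Nts* at chr10:102481756-102490486, *Sst* at chr16:23889573-23890958 and *Gcg* at chr2:62474530-62483650. *Ghrl* alone overlaps other annotated genes, *Gm26982* and *Gm44033*, both on the opposite strand.

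The 200 bases upstream of the annotated start are shown for 4 members: *Cck*, *Gcg* and *Sct*, which were often carried together, and *Tph1*, which was carried apart from *Cck* and *Gcg*. The sequences are from RefSeq (GRCm38.p6), are written 5′ to 3′ on the gene's strand and end at the base before the start. All 4 are on the minus strand, at chr9:121495695-121495894 for *Cck*, chr2:62483654-62483853 for *Gcg*, chr7:141279134-141279333 for *Sct* and chr7:46672538-46672737 for *Tph1*. Capitals mark matches, on either strand, to 3 short motifs. The first is CAGATG, an E-box form bound by factors of the *Neurod1* type. The second is TGACG, the core of the cyclic AMP response element. The third is known as the TATA box and reads TATAAA.
Cck: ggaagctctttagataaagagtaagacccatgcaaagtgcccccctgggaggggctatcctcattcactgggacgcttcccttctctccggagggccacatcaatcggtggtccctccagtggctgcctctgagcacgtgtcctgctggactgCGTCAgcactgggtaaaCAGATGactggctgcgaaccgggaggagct
Gcg: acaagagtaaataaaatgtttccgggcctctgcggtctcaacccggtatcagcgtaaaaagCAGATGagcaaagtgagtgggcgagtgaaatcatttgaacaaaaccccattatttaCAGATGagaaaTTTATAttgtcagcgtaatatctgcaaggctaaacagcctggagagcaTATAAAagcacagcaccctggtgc
Sct: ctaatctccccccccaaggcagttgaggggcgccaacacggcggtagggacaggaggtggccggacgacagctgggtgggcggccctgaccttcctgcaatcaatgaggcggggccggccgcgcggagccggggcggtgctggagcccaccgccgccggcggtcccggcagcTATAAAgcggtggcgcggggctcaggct
Tph1: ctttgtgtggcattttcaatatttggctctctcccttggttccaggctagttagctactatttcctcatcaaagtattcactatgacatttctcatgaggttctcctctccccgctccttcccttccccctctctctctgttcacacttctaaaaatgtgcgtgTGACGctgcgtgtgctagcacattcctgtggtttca

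These motifs were chosen after the expression values had been seen, and a match is a description of the letters only. All 10 members had at least 1 promoter window in the reference table. Within the 250 bases upstream, on both strands, CAGATG occurred at -139 and -83 in *Gcg*, at -30 in *Cck*, at -173 in *Tac1* and at -242 in *Sct*, and in 14.4% of all 32851 windows of that length. The TGACG core occurred in *Cck* (-47), *Tph1* (-36 in the window shown), *Nts* (-166), *Tac1* (-197 and -43) and *Sst*, and in 17.8% of all windows. *Sst* held it as the full palindrome TGACGTCA at -48, overlapping both of its cores. That palindrome was in no other member's window and in 1.55% of all windows. TATAAA occurred in *Gcg* (-72 on the opposite strand and -24) and in *Sct* (-28), and in 12.4% of all windows.

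The endocrine label was checked against markers. Each of the 6 endocrine markers *Chga*, *Chgb*, *Neurod1*, *Cpe*, *Scg5* and *Pcsk1n* was higher in the endocrine barcodes than in the other kept barcodes of every library, with a summed level of 6699, 20498 and 11974 UMIs per 1000000 (counts per 1000000 UMIs, CPM) in WT, *LApc* and *LApcL* against 46.0, 49.3 and 29.3 CPM elsewhere (*Chga* and *Chgb* chose the barcodes). The endocrine barcodes also held RNA of other lineages, to unequal degrees. The 5 Paneth cell markers summed to 41999, 4198 and 3556 CPM in WT, *LApc* and *LApcL*, the 7 goblet markers to 32185, 21747 and 9020 CPM, the 6 enterocyte markers to 6028, 7202 and 3322 CPM, and the 5 adenoma markers (*Sox17*, *Msx1*, *Notum*, *Nkd1* and *Wif1*) to 4.52, 90.1 and 484 CPM. In the other kept barcodes the Paneth sums were 53835, 13737 and 9844 CPM and the goblet sums 59202, 48136 and 10560.5 CPM. The enterocyte sums there were 8081, 17651 and 3456 CPM and the adenoma sums 2.94, 203 and 658 CPM. Each of these sums was lower in the endocrine barcodes, except the adenoma sum in WT. All 6 enterocyte, 7 goblet and 5 Paneth markers had UMIs in the endocrine barcodes of every library. Depth differed as well: the median was 9541 UMIs per endocrine barcode in WT, 3323.5 in *LApc* and 5065 in *LApcL*, and the lowest barcode of the whole library held 5843, 1759 and 2821 UMIs. The part of depth and of other lineages' RNA in the differences between libraries below was not tested beyond the alternatives given. Of the barcode sequences, 214 were shared by WT and *LApc*, 289 by WT and *LApcL* and 318 by *LApc* and *LApcL*, and 1 of these was an endocrine barcode in both of its libraries.

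For WT, *LApc* and *LApcL*, endocrine barcodes made up 4.10% (3.72 to 4.50), 5.40% (4.95 to 5.87) and 2.69% (2.44 to 2.97) of kept barcodes. The order of *LApc* and WT changed under a depth floor. With only barcodes of at least 5843 UMIs in every library, the share was 1.26% in *LApc* and 1.39% in *LApcL* against the same 4.10% in WT. The median over all kept barcodes was 9734, 6133 and 10168 UMIs, against 9541, 3323.5 and 5065 UMIs in the endocrine ones. The floor left out 454 of 520 endocrine barcodes in *LApc* and 216 of 391 in *LApcL*. The shares above it are therefore not shares at matched depth. A filter on likely doublets had removed 19.0%, 22.3% and 24.1% of the barcodes with this many granin UMIs, against 8.69%, 10.3% and 13.2% of all barcodes.

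In these few barcodes lay most of the hormone RNA. They held between 64.4% and 92.5% of the UMIs of every member in the kept barcodes of each library, with 1 exception, *Tac1* in WT at 41.6%. Together the 10 genes took 6.05%, 13.6% and 5.13% of all UMIs of the endocrine barcodes of WT, *LApc* and *LApcL*, and up to 59.7%, 68.7% and 56.3% of the UMIs of a single barcode. Because the levels are shares of a total, a barcode filled by 1 hormone leaves less room for every other gene.

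As background, the same genes were read in enterocyte barcodes, which had no *Chga* or *Chgb* UMI and at least 1% of their UMIs from the enterocyte markers (1025, 2215 and 791 barcodes in WT, *LApc* and *LApcL*, with intervals in the plot of levels). Free RNA in the droplets gives UMIs in cells that do not express a gene. Some of these barcodes also met the marker share of another class, and without them the level fell from 128, 98.2 and 84.0 to 78.9, 73.5 and 51.4 CPM for *Sct* and from 6.79 to 4.27 CPM for *Tac1* in WT.

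**Figure D1:**
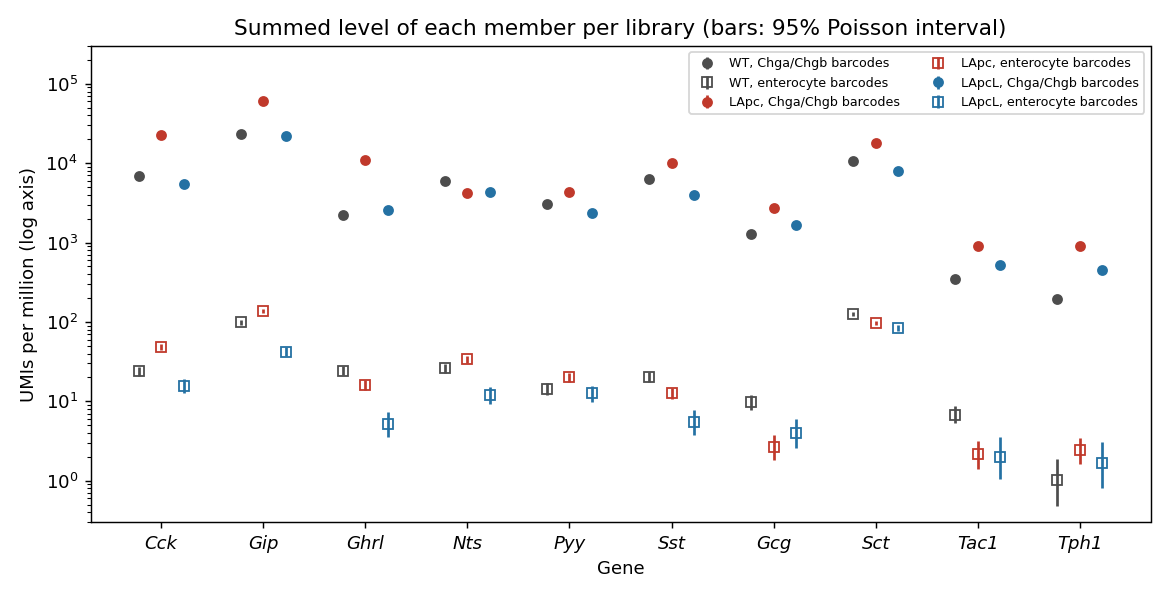
Summed level in CPM (log axis) of each member in endocrine barcodes (filled circles) and in enterocyte barcodes (open squares) of WT, LApc and LApcL, with 95% Poisson intervals, many of them smaller than the symbol. Every filled circle lies at least 51.7-fold above the open square of the same library, and *LApc* has the highest circle for 9 members, all but *Nts*.

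Among the hormones of the upper small intestine, *Gip*, the incretin of K cells, was at 23497 CPM in the endocrine barcodes of WT, 60853 in *LApc* and 21825 in *LApcL*, over 98.6, 137 and 42.2 CPM in enterocyte barcodes. *Cck*, whose peptide drives gallbladder and pancreatic secretion, was at 6954, 22393 and 5487 CPM over 23.8, 48.0 and 15.8. *Sct*, which encodes secretin, the signal for bicarbonate release, was at 10752, 18202 and 8054 CPM over 128, 98.2 and 84.0. *LApc* was highest for all 3 genes, and WT and *LApcL* lay closer to each other than to *LApc*.

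*Ghrl*, the precursor of the appetite hormone ghrelin, was at 2216 CPM in WT, 11091 in *LApc* and 2600 in *LApcL*, over 24.4, 16.2 and 5.20 in enterocyte barcodes. The order of WT and *LApcL* rested on few barcodes, since 1 *LApcL* barcode held 3469 of the 6916 *Ghrl* UMIs. Without the top barcode of each library, the log2 ratio of *LApcL* over WT went from 0.23 to -0.50, and with likely doublets kept it was -1.60. *Sst*, whose product somatostatin restrains the release of other hormones, was at 6334, 10170 and 4015 CPM over 20.5, 12.6 and 5.53. Few barcodes carried that *Sst*: the 42, 52 and 39 endocrine barcodes with the most *Sst* UMIs held 99.8%, 100% and 100% of them, so its level rested on 22, 20 and 16 barcodes with 5 or more UMIs.

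Of the hormones that are most frequent in the lower gut, *Gcg*, which is cut to GLP-1 in L cells, was at 1289 CPM in WT, 2720 in *LApc* and 1662 in *LApcL*. *Pyy*, the appetite-lowering peptide YY, was at 3053, 4359 and 2336 CPM. *Nts*, the precursor of neurotensin, was at 5904, 4249 and 4367 CPM, and it was the only member with its highest level in WT. Enterocyte barcodes held between 2.67 and 33.9 CPM of these 3 genes.

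The 2 genes of the enterochromaffin cell had the lowest counts. *Tph1* was at 193 CPM in WT, 894 in *LApc* and 453 in *LApcL*, from 896, 1796 and 1205 UMIs. *Tac1* was at 351, 901 and 520 CPM, from 1630, 1809 and 1383 UMIs. Both were lowest in WT, as were *Gcg* and *Ghrl*, unlike the peptide genes *Cck*, *Gip*, *Sst*, *Pyy* and *Sct*, which were lowest in *LApcL*. Neither ever took more than 2.06% of a barcode's UMIs, whereas *Gip* reached 68.5%. 3′ counting gives 1 UMI per captured molecule whatever the length of the transcript, and the capture of different transcripts was not compared.

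Between libraries, a ratio of at least 2-fold was counted as a difference, in 8047 genes with a mean of 10 CPM or more over the 3 libraries. Against WT, 6 of the 10 members were higher in *LApc*, where 9.93% of all genes tested were, and none was lower, where 2.6% of all genes were. The log2 ratios were 2.32 for *Ghrl* (2.29 to 2.36), 2.21 for *Tph1* (2.1 to 2.33), 1.69 for *Cck* (1.67 to 1.71), 1.37 for *Gip* (1.36 to 1.38), 1.36 for *Tac1* (1.26 to 1.46) and 1.08 for *Gcg* (1.02 to 1.13). *Sct* (0.76), *Sst* (0.68) and *Pyy* (0.51) were higher by less than 2-fold, and *Nts* was at -0.47. The median over the 10 was 1.22, and over all genes tested 0.19.

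These ratios changed with the choice of barcodes. With only barcodes as deep as the shallowest WT barcode, 66 of the *LApc* endocrine barcodes were left. Then 2 members were higher, *Ghrl* (2.53) and *Gip* (1.00), 3 were lower, *Nts* (-7.67), *Pyy* (-3.34) and *Sst* (-2.18), and the median was -0.64. Endocrine barcodes were also chosen by 500 CPM of the granins, a share that a shallower barcode reaches with fewer UMIs. This took 406 WT and 627 *LApc* barcodes. It gave 3 higher members, *Ghrl* (1.93), *Tph1* (1.81) and *Cck* (1.34), and a median of 0.75. *Ghrl* was the only member beyond 2-fold under both of these choices, but with the likely doublets kept its log2 ratio was 0.59.

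Against WT, 1 member was higher in *LApcL*, where 6.51% of all genes were, and none was lower, where 2.71% of all genes were. That member was *Tph1*, at a log2 ratio of 1.23 (1.11 to 1.36). The other 9 lay between -0.66 (*Sst*) and 0.57 (*Tac1*), and the median of the 10 was -0.22 against 0.31 for all genes. At the WT depth floor, *Tph1* was at 0.23 and 4 members were lower by 2-fold or more: *Sst* (-2.80), *Nts* (-2.30), *Pyy* (-1.29) and *Sct* (-1.27). The comparisons with WT share the WT library, and the third comparison shares a library with each of them.

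Against *LApc*, 5 members were lower in *LApcL*, where 4.6% of all genes were, and none was higher, where 5.19% of all genes were. They were *Ghrl* (-2.09), *Cck* (-2.03), *Gip* (-1.48), *Sst* (-1.34) and *Sct* (-1.18). *Tph1* (-0.98), *Pyy* (-0.90), *Tac1* (-0.79) and *Gcg* (-0.71) were lower by less than 2-fold, and *Nts* was at 0.04, with an interval that included 0 (-0.0010 to 0.080). The median over the members was -1.08 and over all genes 0.09. At the WT depth floor, *Ghrl* (-2.32), *Gip* (-1.58) and *Cck* (-1.24) were still lower by 2-fold or more, while *Nts* (5.37) and *Pyy* (2.05) were higher. *Ghrl* and *Cck* were at least 2-fold lower under all 14 alternatives tried, with ranges of -2.68 to -1.46 and -2.13 to -1.24.

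**Figure D2:**
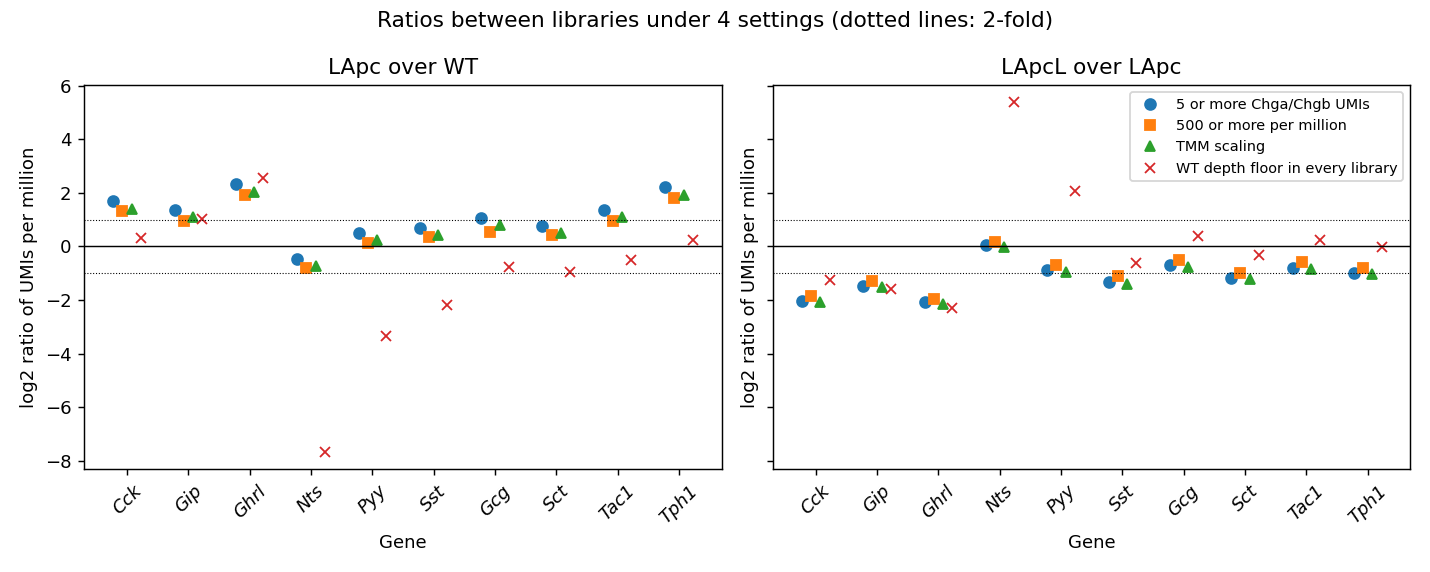
Log2 ratio of each member's CPM between LApc and WT (left) and between LApcL and LApc (right), under 4 settings: the main one, endocrine barcodes chosen by 500 or more CPM of Chga and Chgb, TMM scaling (a trimmed mean over genes), and only barcodes as deep as the shallowest WT barcode. The crosses of the depth floor lie far from the other symbols for *Nts* and *Pyy*, and *Ghrl* lies beyond the dotted 2-fold lines under every setting in both panels.

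Other endocrine genes were counted by the same rule, which in *LApc* over WT called 9.93% of all genes higher and 2.6% lower. Of 8 tested genes of hormone processing and granules, 7 were higher in *LApc* than in WT by 2-fold or more and none lower. Among them were *Pcsk1*, the convertase that cuts the precursors (85.1, 180 and 94.7 CPM in WT, *LApc* and *LApcL*), *Scg2*, a granin (342, 884 and 346 CPM), and *Pcsk1n*, an inhibitor of *Pcsk1* (191, 633 and 746 CPM). *Pcsk1n* and *Scg5* (88.1, 290 and 306 CPM) were in addition 2-fold higher in *LApcL* than in WT, as was *Vgf*, 3 of the 8 where 6.51% of all genes were. Of 17 tested endocrine transcription factors, 7 were higher in *LApc* than in WT and none lower (9.93% and 2.6% of all genes), with a median log2 ratio of 0.95, against 1.22 for the members and 1.29 for the processing genes. Among these factors, *Neurog3* was at 23.0, 27.4 and 43.2 CPM in WT, *LApc* and *LApcL*.

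Among the serotonin genes was *Slc18a1*, the transporter that loads amines into granules, at 61.4 CPM in WT, 290 in *LApc* and 160 in *LApcL*. *Lmx1a*, a factor of enterochromaffin cells, was at 20.5, 101 and 36.1 CPM, and *Trpa1*, a channel for irritants, at 58.6, 205 and 60.5 CPM. Of the 7 genes, 4 were at least 2-fold higher in *LApc* (9.93% of all genes) and 1 in *LApcL* (6.51% of all genes), both against WT. Of 12 other peptide genes only 3 had the minimum level. *Cartpt*, the precursor of the CART peptide, was at 17.7 CPM in WT, 435 in *LApc* and 208 in *LApcL*, log2 ratios over WT of 4.62 (4.30 to 4.97) and 3.55 (3.22 to 3.91). *Ucn3*, of the urocortin family, was at 24.8, 119 and 28.2 CPM, and *Iapp*, the precursor of amylin, at 327, 300.3 and 172 CPM. Of the 5 tested nutrient receptors, 4 were higher in *LApc* than in WT, where 9.93% of all genes were, among them the fatty acid receptors *Ffar1* (37.5, 77.2 and 35.3 CPM) and *Ffar2* (68.3, 147 and 87.6 CPM).

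Of 4 tested genes of position along the intestine, 2 were lower in both mutant libraries than in WT by 2-fold or more, where 2.6% (*LApc*) and 2.71% (*LApcL*) of all genes were. *Fabp6*, a bile acid binding protein of the ileum, was at 2142 CPM in the endocrine barcodes of WT, 562 in *LApc* and 422 in *LApcL*, and the enterocyte barcodes of the same libraries held 10118, 3341 and 3265 CPM. *Osr2* was at 44.2, 20.9 and 21.4 CPM. *Nts*, the member with its highest level in WT, was the 1 whose carriers most often held a UMI of the ileal bile acid transporter *Slc10a2* in WT, 26.8% (15.8 to 40.3) of 56 barcodes with at least 667 CPM of *Nts* against 9.09% (6.51 to 12.3) of all 418, a pair singled out after its values were seen. In the mutant libraries, 0 of 28 *Nts* barcodes in *LApc* and 0 of 24 in *LApcL* held a *Slc10a2* UMI, which allows up to 10.7% and 12.5%, against 2.12% and 1.53% of all endocrine barcodes. The *Slc10a2* shares were not brought to equal depth, and endocrine barcodes of WT were the deepest. Whether the libraries drew on different lengths of the intestine was not tested.

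To count how many barcodes carried a member at equal depth, each barcode was thinned to 3000 UMIs, and 2 or more UMIs were required. This left 418 WT, 299 *LApc* and 367 *LApcL* barcodes and left out 0, 221 and 24 that were shallower. The *LApc* shares below therefore describe its deeper barcodes only. Of all 520 *LApc* endocrine barcodes, 225 held at least 667 CPM of *Tph1*, 137 of *Tac1*, 181 of *Cck* and 145 of *Gip*. Among the 299 thinned ones, 81 carried *Tph1*, 47 *Tac1*, 145 *Cck* and 110 *Gip*. *Sct* was carried by 71.5% (66.9 to 75.8), 81.9% (77.1 to 86.1) and 70.0% (65.1 to 74.7), *Cck* by 35.9% (31.3 to 40.7), 48.5% (42.7 to 54.3) and 29.4% (24.8 to 34.4), and *Gip* by 23.7% (19.7 to 28.1), 36.8% (31.3 to 42.5) and 19.3% (15.4 to 23.8). In enterocyte barcodes of no other class (845, 1727 and 611 deep enough) the same measure gave 4.14%, 2.90% and 1.47% for *Sct*, 3.55%, 6.49% and 1.47% for *Gip*, and at most 1.16% for any other member in any library.

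*Tph1* was carried by 15.6% (12.2 to 19.4) of WT barcodes, 27.1% (22.1 to 32.5) of *LApc* barcodes and 28.6% (24.0 to 33.5) of *LApcL* barcodes, so that WT lay apart from the other libraries. *Nts* was instead highest in WT, at 14.1% (10.9 to 17.8), 5.69% (3.35 to 8.95) and 6.81% (4.46 to 9.89). *Gcg* was carried by 13.6% (10.5 to 17.3), 12.7% (9.15 to 17.0) and 6.81% (4.46 to 9.89), where the intervals of *LApc* and *LApcL* overlap. *Tac1* (18.7%, 15.7% and 23.4%), *Pyy* (14.1%, 21.1% and 15.5%) and *Sst* (5.74%, 5.69% and 4.09%) had overlapping intervals in all 3 libraries. *Ghrl* was at 16% (12.6 to 19.9), 25.4% (20.6 to 30.7) and 12.5% (9.32 to 16.4).

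The level per carrier varied more between genes than these shares. Carriers of *Sst* held a median of 125205, 273049 and 170646 CPM in WT, *LApc* and *LApcL*, and carriers of *Gip* 47754, 175382 and 64382 CPM. Carriers of *Tph1* held 726, 1400 and 1312 CPM and those of *Tac1* 1326, 2082 and 1515 CPM. *Cck* carriers ranged widely within a library, from a lower quartile of 1328 to an upper quartile of 22808 CPM in WT and from 2171 to 113725 CPM in *LApc*.

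**Figure D3:**
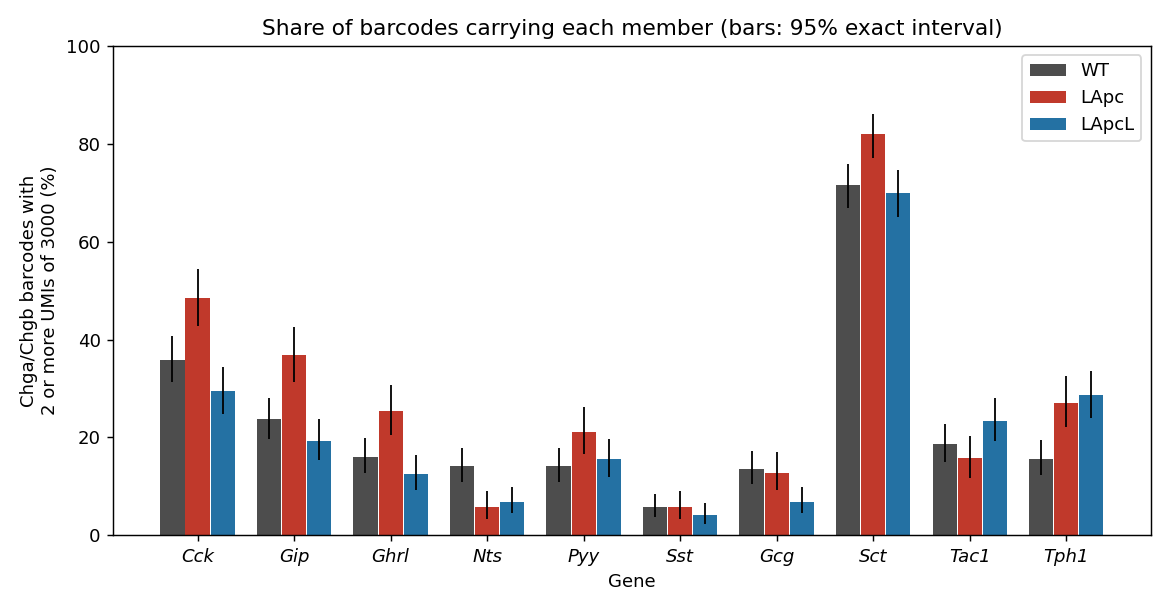
Share of endocrine barcodes with 2 or more UMIs of each member after thinning to 3000 UMIs, in WT (n = 418), LApc (n = 299) and LApcL (n = 367), with exact 95% intervals. *Sct* has the highest bars in every library, between 70.0% and 81.9%, and *Nts* is the member with its highest bar in WT that stands clear of both other intervals.

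Most endocrine barcodes carried several members. For WT, *LApc* and *LApcL*, the share with 2 or more was 69.4% (64.7 to 73.8), 84.9% (80.4 to 88.8) and 65.9% (60.8 to 70.8), against 0.585%, 1.41% and 0.129% of enterocyte barcodes. Leaving *Sct* out of the count, 47.8% (43.0 to 52.8), 63.9% (58.2 to 69.3) and 48.5% (43.3 to 53.7) carried 2 or more. 3 or more were carried by 44.3%, 58.9% and 43.3%. The highest number in a barcode was 6 in WT, 7 in *LApc* and 6 in *LApcL*. With 500 CPM of the granins as the choice of barcodes, the *LApc* share with 2 or more was 77.0%, and at the WT depth floor it was 63.6% of 66 barcodes.

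The distinct combinations numbered 93, 66 and 74 in WT, *LApc* and *LApcL*. The most frequent combination of members in WT was *Cck* with *Gip* and *Sct*, in 34 of 418 barcodes, followed by *Sct* alone in 32, *Sct* with *Tac1* in 25 and *Sct* with *Tph1* in 23. The leading combinations differed in the other libraries, *Sct* with *Tph1* (30 of 299) ahead of *Cck* with *Gip* and *Sct* (28) in *LApc*, and *Sct* alone (39 of 367), *Sct* with *Tac1* and *Tph1* (32) and *Sct* with *Tph1* (31) ahead of *Cck* with *Gip* and *Sct* (18) in *LApcL*. Few carriers of *Pyy* or *Gcg* held their hormone alone. Of *Pyy* carriers 0 of 59 in WT, 0 of 63 in *LApc* and 1 of 57 in *LApcL* carried no other member, and of *Gcg* carriers 1 of 57, 0 of 38 and 0 of 25. Those counts of 0 allow shares of up to 5.08% and 4.76% for *Pyy* in WT and *LApc*, and up to 7.89% and 12.0% for *Gcg* in *LApc* and *LApcL*. Being rarely alone was not particular to *Pyy* and *Gcg*. *Cck* was alone in 0.667%, 1.38% and 1.85% of its carriers in WT, *LApc* and *LApcL*, and *Gip* in 2.02%, 3.64% and 4.23%. *Tac1* was more often alone, in 24.4% of its carriers in WT, 17.0% in *LApc* and 15.1% in *LApcL*, as was *Sct*, in 10.7%, 5.71% and 15.2%. *Ghrl* was alone in 8.96%, 2.63% and 13% of its carriers.

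For each of the 45 pairs, the number of barcodes that carried both was divided by the number that the product of their shares gives. 21 pairs were above that product in all 3 libraries, 19 were below it in all 3, and 5 were mixed. Correlations of log-normalized values over the endocrine barcodes of a library (418, 520 and 391) are given as descriptions, since these points share a library, differ in depth and are shares of 1 total. Under none of the 12 alternatives in the choice or thinning of barcodes did a pair move from above in all 3 libraries to below in all 3, or the reverse.

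*Cck* and the L cell hormones were often carried together. *Gcg* carriers also carried *Cck* in 50 of 57 barcodes in WT, 38 of 38 in *LApc* and 23 of 25 in *LApcL*, which is 2.44, 2.06 and 3.13 times the product of shares, with correlations of 0.53, 0.52 and 0.49. *Pyy* and *Gcg* met in 22, 25 and 15 barcodes, 2.73, 3.12 and 3.86 times the product. *Cck* and *Gip* met in 61, 70 and 43 barcodes, 1.72, 1.31 and 2.06 times the product. *Gip* and *Gcg*, both incretin genes, were by contrast below the product in all 3 libraries, at 0.41 to 0.79 times it.

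*Sst* was carried with *Ghrl* more than with any other member relative to the product. Of *Sst* carriers, 16 of 24 in WT, 16 of 17 in *LApc* and 11 of 15 in *LApcL* carried *Ghrl*, 4.16, 3.70 and 5.85 times the product. *Sst* and *Gcg* met in 1 barcode in WT and in 0 in *LApc* and *LApcL*, where a count of 0 allows up to 17.6% of 17 and 20% of 15 *Sst* carriers. *Sst* and *Cck* met in 4, 1 and 2 barcodes. *Ghrl* itself was also above the product with *Gcg* in each library, at 2.19, 2.07 and 3.19 times it.

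*Tac1* and *Tph1* formed a pair of their own. They met in 22, 29 and 52 barcodes, 1.81, 2.28 and 2.11 times the product, with correlations of 0.45, 0.42 and 0.53. Each was below the product with all of *Cck*, *Gip*, *Ghrl*, *Nts*, *Pyy*, *Sst* and *Gcg* in all 3 libraries. *Ghrl* and *Tac1* met in 1, 3 and 0 barcodes, although 67, 76 and 46 carried *Ghrl*, and the count of 0 allows up to 6.52% of the *LApcL* carriers. The separation was partial. Of barcodes with *Tac1* or *Tph1*, 25.6%, 33.3% and 30.2% also carried at least 1 of the 7 peptides. *Sct*, carried by 71.5%, 81.9% and 70.0% of all thinned barcodes, was found on both sides. *Tph1* carriers had *Sct* in 54 of 65, 72 of 81 and 92 of 105 barcodes, 1.16, 1.08 and 1.25 times the product. *Cck* carriers had it in 139 of 150, 131 of 145 and 96 of 108, 1.30, 1.10 and 1.27 times the product. With *Tac1* it was at 0.88, 0.78 and 1.06 times the product.

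**Figure D4:**
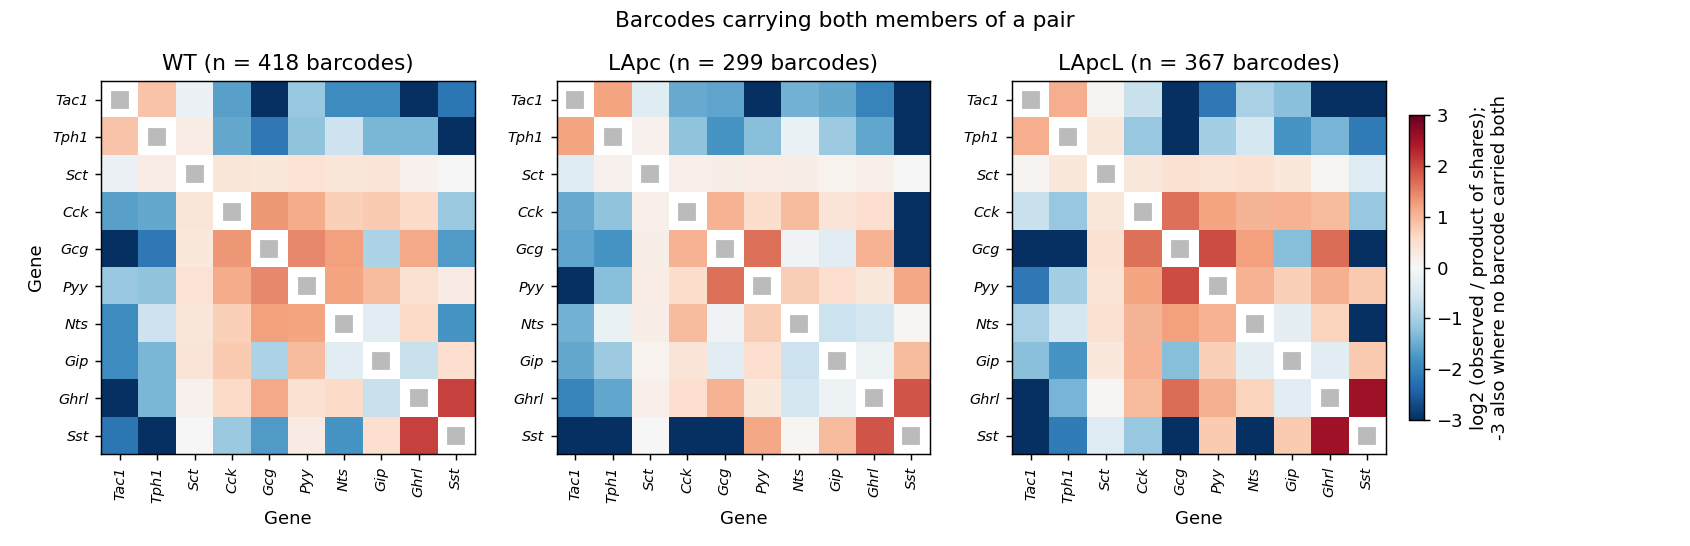
For each pair of members, the log2 of the number of endocrine barcodes that carried both over the number given by the product of their shares, in WT, LApc and LApcL (red above, blue below, darkest blue also where no barcode carried both). The red block of *Cck*, *Gcg* and *Pyy*, the dark red *Ghrl* and *Sst* pair, and the blue bands of *Tac1* and *Tph1* against the 7 peptides other than *Sct* recur in all 3 panels.

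*Sct* was the member with the most UMIs in 33.5% (29.0 to 38.2) of endocrine barcodes of WT. The *LApc* share was 40.0% (35.8 to 44.4), and the *LApcL* share 33.5% (28.8 to 38.4). *Gip* led in 13.6%, 15.4% and 13.3%, *Tac1* in 12.2%, 10.8% and 12.3%, and *Cck* in 7.89%, 12.3% and 7.16%. No member reached 5 UMIs in 12.2% (9.22 to 15.7), 6.73% (4.73 to 9.24) and 15.6% (12.1 to 19.6). A *Neurog3* UMI was found in 5 of 51, 3 of 35 and 10 of 61 of these barcodes without a leading member, and in 26 of 367, 8 of 485 and 9 of 330 of those with one. *LApcL* had the largest gap, 16.4% (8.15 to 28.1) against 2.73% (1.25 to 5.11). In WT, carriers of at least 667 CPM of *Tac1* had a *Neurog3* UMI in 20% (11.1 to 31.8) of 65 barcodes, against 7.42% (5.09 to 10.4) of all 418, a gap singled out after its values were seen. It was smaller in *LApc*, 3.65% (1.20 to 8.31) against 2.12%, and in *LApcL*, 5.81% (1.91 to 13) against 4.86%. These *Neurog3* shares were not brought to equal depth, and the libraries differed in depth.

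The genes most like each member were ranked by the mean over libraries of the correlation across endocrine barcodes, among 9628 genes detected in at least 10 of them in every library. *Sst* had the closest partners: *Iapp* (0.92, 0.92 and 0.82 in WT, *LApc* and *LApcL*), the D cell factor *Hhex* (0.91, 0.81 and 0.68) and the channel gene *Asic5* (mean 0.70). *Gip* was most like *Fabp5*, a fatty acid binding protein (mean 0.79), *Pkib*, an inhibitor of protein kinase A (0.59), and *Cnr1*, the cannabinoid receptor (0.59). *Cck* was most like *Scg2* (0.75), the retinol carrier *Rbp4* (0.62) and the factor *Etv1* (0.62).

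*Gcg* and *Pyy* had partners in common with *Cck*: *Etv1* (mean 0.49 with *Gcg* and 0.36 with *Pyy*) and *Ffar1* (0.38 and 0.37). *Gcg* was in addition like *Fars2* (0.45) and *Pyy* like *Scg2* (0.39). *Nts* was most like the adhesion receptor *Adgrd1* (0.56), *Ffar1* (0.40) and *Qpct* (0.40), the enzyme that closes the N-terminal glutamine of peptides such as neurotensin. *Ghrl* was most like *Serpina1b* (0.47), *Ceacam10* (0.45) and *BC048546* (0.39). *Sct* was most like *Myl7* (0.63), *Tm4sf4* (0.53) and *Scg2* (0.52).

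*Tph1* was most like *Chga* (0.68) and *Chgb* (0.64), the genes that chose the barcodes, and *Reg4* (0.58). *Slc18a1* (0.57) and *Lmx1a* (0.48) of the serotonin list and *Cartpt* (0.45) of the peptide list were also among its correlates. *Tac1* was most like *Chgb* (0.59), the intermediate filament *Vim* (0.56) and *Rab3c* (0.55), a small GTPase of secretory vesicles, and like *Lmx1a* at 0.38. Since *Chga* and *Chgb* chose the barcodes, a cell with few granin transcripts was less likely to enter.

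Outside the endocrine barcodes, *Sct* and *Tac1* had levels above background in some classes. For this, barcodes without *Chga* or *Chgb* UMIs were put in goblet, Paneth and tuft classes, each without barcodes that met another class. The marker shares were set after the values had been seen (goblet 5%, Paneth 3% and tuft 0.2% of UMIs). Enterocyte barcodes of no other class served as the background. The adenoma class took every such barcode with 3 or more UMIs of the adenoma markers, including those that met another class. In WT, *Tac1* was at 65.2 CPM in 1868 goblet barcodes (1146 UMIs) against 4.27 CPM in 845 enterocyte barcodes (35 UMIs), a log2 ratio of 3.93 (3.45 to 4.46). In *LApc* it was at 23.9 against 1.79 CPM, a log2 ratio of 3.74 (3.06 to 4.50), and in *LApcL* at 7.04 against 2.58 CPM, a log2 ratio of 1.45 (0.43 to 2.56). 5 or more *Tac1* UMIs were found in 60 goblet barcodes of WT and 4 of *LApc*. Among Paneth and tuft barcodes *Tac1* lay between 0 and 4.57 CPM. Adenoma barcodes of *LApc* held 4.85 CPM, a log2 ratio of 1.44 (0.59 to 2.32), and those of *LApcL* 1.43 CPM, with an interval that included 0 (-1.70 to 0.14).

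*Sct* was higher in goblet than in enterocyte barcodes in all libraries, at 414 against 78.9 CPM in WT, 346 against 73.5 in *LApc* and 244 against 51.4 in *LApcL*. The log2 ratios were 2.39 (2.27 to 2.51), 2.24 (2.12 to 2.35) and 2.25 (2.04 to 2.46). Tuft barcodes, from 92, 18 and 131 barcodes, held 299, 440 and 248 CPM. Paneth barcodes were at 64.3 and 53.1 CPM in WT and *LApc*, below the enterocyte level, but at 221 CPM in *LApcL*. Adenoma barcodes, with 3 or more UMIs of the adenoma markers, held 61.7 CPM in *LApc*, below the enterocyte level at a log2 ratio of -0.25 (-0.43 to -0.08). In *LApcL* they held 50.1 CPM, with an interval of the log2 ratio that included 0 (-0.22 to 0.16). The other 8 members lay between 0.63 and 2.20 times the enterocyte level in goblet barcodes. *Pyy* (log2 ratio 0.43, 0.12 to 0.74) and *Nts* (0.32, 0.08 to 0.55) in *LApc* had intervals above 0, *Ghrl* in WT had one below 0 (-0.27, -0.52 to -0.02), and the other 21 intervals included 0. In Paneth barcodes of *LApcL*, *Sst* was at 12.8 against 4.94 CPM, a log2 ratio of 1.37 (0.46 to 2.28). That value rested on 22 UMIs, with 5 or more in 1 of 77 barcodes. Paneth barcodes of the other libraries went the opposite way for *Sst*, at -0.49 (-0.86 to -0.12) in WT and -1.62 (-3.26 to -0.36) in *LApc*. In Paneth barcodes, *Cck*, *Nts* and *Pyy* had intervals below 0 in every library. *Gip* had one in WT and *LApc*, and *Ghrl*, *Gcg* and *Tac1* in WT only. Paneth barcodes were deeper, with a median of 38401, 14144 and 20000 UMIs in WT, *LApc* and *LApcL* against 9060, 5317 and 7080 in these enterocyte barcodes. The part of that depth gap in the lower levels was not tested.

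**Figure D5:**
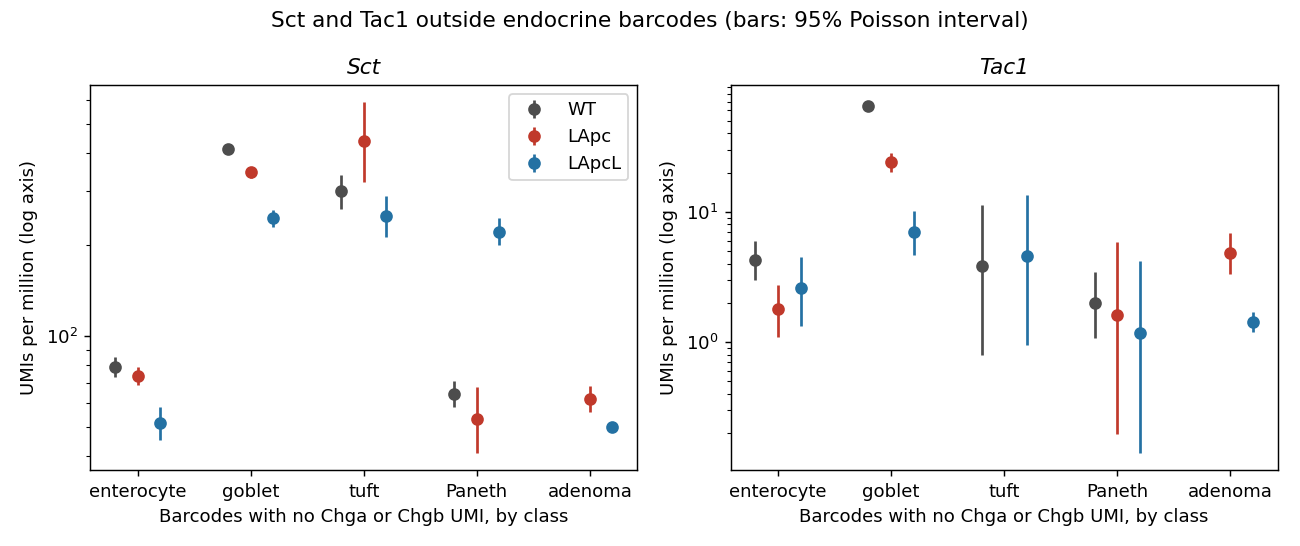
CPM (log axis) of Sct (left) and Tac1 (right) in barcodes without a Chga or Chgb UMI, by marker class and library, with 95% Poisson intervals. Classes of fewer than 10 barcodes (WT adenoma) and values of 0 (*Tac1* in LApc tuft barcodes) are not drawn. Goblet barcodes lie above enterocyte barcodes for both genes in every library, and for *Tac1* the goblet level is highest in WT at 65.2.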

How the data were processed

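Cells of the small intestine had been sorted for EpCAM, and 3′ libraries were made on the 10x Chromium platform. The study's methods give reagent kit v2 or v3 without a version per library. The authors counted UMIs with Cell Ranger 2.1.1 on mm10 (GRCm38), and the deposited values are raw counts per gene and barcode. Total UMIs came to 140181087 (WT), 79696291 (*LApc*) and 191509615 (*LApcL*), from 11453, 13214 and 17388 barcodes. Barcodes in the lowest or highest 1% by genes detected or above 20% mitochondrial UMIs were removed. The highest Scrublet scores (scanpy 1.11.5) were also removed, at 0.8% per 1000 barcodes, since Scrublet's own threshold marked 4 barcodes in *LApc*. It marked 2065 in WT and 755 in *LApcL*. The fixed rate removed 970, 1102 and 2211 barcodes in WT, *LApc* and *LApcL*, so in WT it removed fewer than that threshold marked. Levels are UMIs summed over barcodes and scaled to a total of 1000000 (CPM). Intervals are 95% Clopper-Pearson for shares, Poisson for levels and conditional binomial for ratios. They cover counting error only. Correlations used ln(1 + 10000 × UMIs/total). TMM factors came from edgeR 4.0.16. The members, gene lists and markers were chosen with earlier results of these data known. All 10 members were named, with the 3 most correlated genes of each (mean r of 0.3 or more) and genes of the lists. The ratio and thinning steps were tested on simulated data. Protein sequences were not used here.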

Additional observations from a re-analysis of the deposited data

How the results depend on the processing

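Every comparison rests on 1 library per genotype, so no alternative can show how far a second mouse would differ. No paired analysis was possible because each genotype had 1 library and no test was made. No library could be left out either, for the same reason. Depth was a further limit: 454 *LApc* and 216 *LApcL* endocrine barcodes were shallower than any WT barcode, and a WT barcode needed a smaller share of granin RNA to reach 5 UMIs. The cause of each change given here was not tested. The share of kept barcodes that were endocrine moved out of its interval to 4.62% (WT), 6.23% (*LApc*) and 3.08% (*LApcL*) with likely doublets kept, 4.63% (WT) and 3.03% (*LApcL*) over all deposited barcodes, 6.10% (WT), 6.18% (*LApc*) and 3.34% (*LApcL*) with a minimum of 3 granin UMIs, 3.14% (WT), 4.33% (*LApc*) and 2.22% (*LApcL*) with a minimum of 10, 6.51% (*LApc*) with a minimum of 500 CPM of the granins, and 1.26% (*LApc*) and 1.39% (*LApcL*) at the WT depth floor. The number of members past 2-fold moved by more than 1.5 times in these settings: with likely doublets kept 0 higher in *LApcL* than in WT, 2 lower in *LApcL* than in WT and 8 lower in *LApcL* than in *LApc*, over all deposited barcodes 0 higher in *LApcL* than in WT, 2 lower in *LApcL* than in WT and 8 lower in *LApcL* than in *LApc*, with a minimum of 10 1 lower in *LApc* than in WT, 1 lower in *LApcL* than in WT, 1 higher in *LApcL* than in *LApc* and 8 lower in *LApcL* than in *LApc*, with a minimum of 500 CPM of the granins 3 higher in *LApc* than in WT, at the WT depth floor 2 higher in *LApc* than in WT, 3 lower in *LApc* than in WT, 0 higher in *LApcL* than in WT, 4 lower in *LApcL* than in WT, 2 higher in *LApcL* than in *LApc* and 3 lower in *LApcL* than in *LApc*, with TMM scaling 0 higher in *LApcL* than in WT, and with barcodes weighted equally 2 lower in *LApcL* than in *LApc*. The share of barcodes that carried 2 or more members moved to 56.7% (*LApcL*) with likely doublets kept, 64.0% (WT), 77.4% (*LApc*) and 56.5% (*LApcL*) over all deposited barcodes, 49.8% (WT), 76.3% (*LApc*) and 57.2% (*LApcL*) with a minimum of 3 granin UMIs, 77.0% (*LApc*) with a minimum of 500 CPM of the granins, 63.6% (*LApc*) and 48.6% (*LApcL*) at the WT depth floor, 87.1% (WT), 94.6% (*LApc*) and 85.0% (*LApcL*) with 1 UMI to carry, 45.7% (WT), 66.6% (*LApc*) and 45.5% (*LApcL*) with 5 UMIs to carry, 72.7% (*LApc*) and 60.4% (*LApcL*) with 5 UMIs and no thinning, 77.3% (WT) and 80.0% (*LApc*) when thinned to 5000 UMIs, and 55.0% (WT), 79.2% (*LApc*) and 54.5% (*LApcL*) when thinned to 1500 UMIs. The median share over the 10 members moved to 11.8% (WT) with a minimum of 3 granin UMIs, 13.6% (*LApc*) and 13.1% (*LApcL*) at the WT depth floor, 26.8% (WT), 32.4% (*LApc*) and 29.2% (*LApcL*) with 1 UMI to carry, 10.05% (WT), 13.9% (*LApc*) and 12.8% (*LApcL*) with 5 UMIs to carry, 17.1% (*LApc*) with 5 UMIs and no thinning, 20.8% (WT) when thinned to 5000 UMIs, and 11.7% (WT) when thinned to 1500 UMIs. Single ratios past 2-fold kept their sign in 166 of 168 recomputations and their 2-fold size in 142. The exceptions in sign were *Gcg* (-0.79) and *Tac1* (-0.50) in *LApc* over WT at the WT depth floor. TMM scaling moved the median of all genes from 0.19 to -0.09 in *LApc* over WT and left 5 of 10 members higher there, against 5.43% of all genes. The pairs above the product in all 3 libraries stayed between 17 and 21 of the 21, and those below between 16 and 19 of the 19. Without the barcode that held most UMIs of a gene in each library, 5 members were higher in *LApc* than in WT (*Gcg* was at 0.99) and 6 lower in *LApcL* than in *LApc*. That setting, the depth floor, the thinning to 1500 UMIs and the omission of barcode sequences found in several libraries were added after seeing the data.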

Other observations

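Besides the classes of the report, *Ghrl* was found in barcodes of the adenoma class in *LApcL*, which could also meet another class. There, 27 of 7226 barcodes without a *Chga* or *Chgb* UMI held 5 or more *Ghrl* UMIs, and the level of the class was 7.63 CPM against 5.80 CPM in enterocyte barcodes of no other class, a log2 ratio of 0.39 (-0.16 to 1.01). *Sct* reached 5 UMIs in 105 of the same adenoma barcodes, *Gip* in 12 and *Cck* in 5. In *LApc*, 0 of 831 adenoma barcodes held 5 *Ghrl* UMIs, which allows a share of up to 0.361%, and *Sct* reached 5 UMIs in 3 of them.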
